A study of Populus davidiana with 6 samples.

Results

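In the leaf of a drought-sensitive aspen, 200 of 40537 loci were raised at least 2-fold, with no overlap between samples, after the plants had lain in open air for about 10 min. A locus entered this set when it spanned at least 300 bases, averaged 1 FPKM or more over the 3 control samples, and its lowest air-dried value was at least 2 times its highest control value. FPKM counts sequenced fragments relative to transcript length and to the size of the library, and was summed here over the transcripts of a locus. Of the loci, 21858 met the first pair of conditions and are called eligible; 200, or 0.915%, also met the last. The mirror rule, with the groups exchanged, took 127 of 21763 loci, or 0.584%. The members were chosen by the rise itself, that is, by their FPKM in these same 6 samples, so their values in the 2 groups are a description and are not tested.

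The plants were Populus davidiana of the cultivar Palgong1, propagated from internodes in sterile culture on medium with sucrose and an auxin, and about 6 weeks old. Leaves of 3 control samples and 3 air-dried samples were profiled by sequencing of poly(A) RNA. The air-dried plants were pulled from the medium, rinsed with sterile water and left in open air; the labels do not say whether control plants were also lifted or rinsed, so handling and drying cannot be told apart. Every sample came from this single cultivar, and the labels do not say whether replicates were separate plants.

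A leaf that loses water quickly is known to close its stomata through the hormone abscisic acid, to raise calcium and reactive oxygen in its cells, and to switch on genes for transcription factors, phosphatases and protective proteins within minutes. Lifting and rinsing also bend and touch a plant, and touch by itself is known to induce genes as fast. Genes that respond to stress within minutes are known, in plants as in animals, to be often short with few introns. The deposited tables give a gene name for 0 of 112919 transcripts, and identifiers were not matched to names from elsewhere, so no roles are given for the members, and no marker of leaf or of another tissue could be checked. Loci are given by position, with coordinates as deposited on a genome build the sources do not name, and 2 are given by identifier.

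One library, control replicate 1, was unlike the other 5. Over 21963 loci of at least 300 bases, its correlation with another sample on the log2(FPKM + 1) scale was 0.860 to 0.889, against 0.926 to 0.980 among the others (across loci, which are not independent replicates). Sequencing depth is unknown for every sample, since no read totals were used. The kit did not mark strand, so reads of overlapping loci on opposite strands cannot be told apart. In bulk leaf RNA, a change in the share of a cell type and a change in RNA per cell cannot be told apart either.

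**Figure D1:**
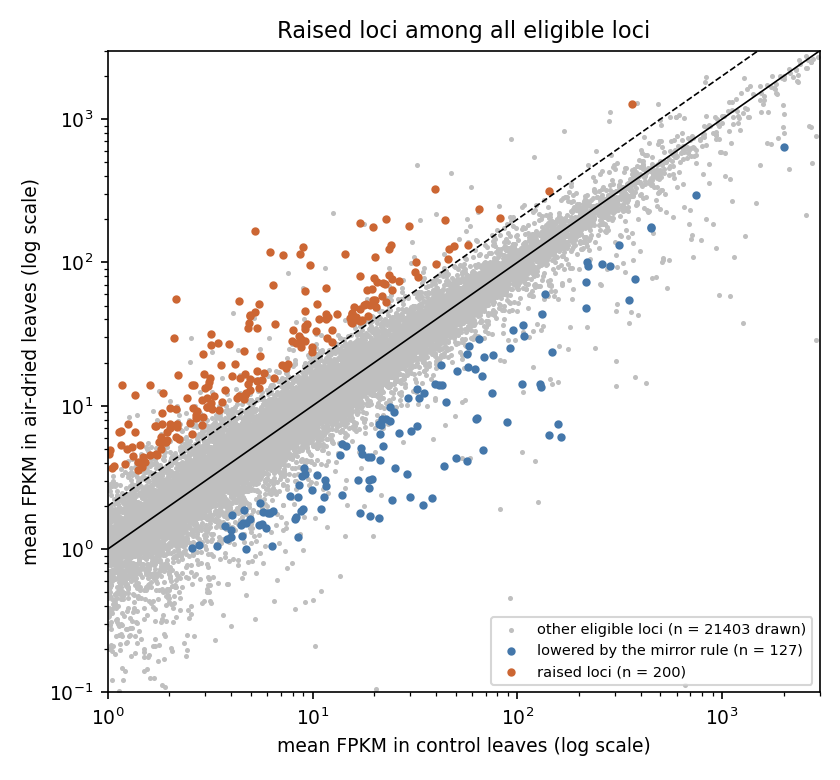
Mean FPKM of each eligible locus in control leaves (horizontal) and air-dried leaves (vertical), both on log scales, with 200 raised loci in orange, 127 lowered loci in blue and other loci in grey; 128 other loci lay outside the axes. The solid line marks equal means and the dashed line a 2-fold higher mean in air-dried leaves; raised loci lie above the dashed line from the lowest levels up to a single locus above 1000 FPKM.

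Most of the raised loci were weakly to moderately expressed in control leaves. Their median control mean was 5.23 FPKM (quartiles 2.55 and 15.5), against 12.2 FPKM over all eligible loci, and their median air-dried mean was 25.8 FPKM (quartiles 9.65 and 51.2). A low level in the lower group was not particular to them. The loci taken by the mirror rule had a median air-dried mean of 4.93 FPKM, against 12.6 FPKM over loci eligible under that rule. The ratio of mean FPKM, air-dried over control, had a median of 3.40 over the members (quartiles 2.74 and 4.87, range 2.20 to 32.0) and of 0.994 over all eligible loci. It was at least 4 in 70 members, at least 8 in 23 and at least 16 in 3. In 40 members the lowest air-dried value was at least 4 times the highest control value, and in 8 at least 8 times.

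The median ratio was somewhat lower where the control level was higher. The 99 members with a control mean under 5 FPKM had a median ratio of 3.60, the 71 members from 5 to under 20 FPKM one of 3.30, and the 30 members at 20 FPKM or more one of 2.97. The largest ratio in the last group was 8.71. Ratio and level share the control values, so this order is a description only.

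The raised loci made up a small part of the most abundant loci of the leaf. In control leaves a mean of at least 100 FPKM was listed for 2 of the 200 members, beside 1535 of 21858 eligible loci. In air-dried leaves it was listed for 24 of the 200, beside 1460 of the 21763 loci eligible under the mirror rule. The rule favours high air-dried values, so these counts are a description only. Among the 1000 most abundant loci of at least 300 bases there was 1 member in control leaves and 11 in air-dried leaves. Summed over the 200 members, FPKM came to 2320, 2706 and 2537 for control replicates 1 to 3 and to 10102, 9591 and 9585 for air-dried replicates 1 to 3. The rule itself makes each air-dried sum at least 2 times each control sum, so nothing is read from the gap between the groups.

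**Figure D2:**
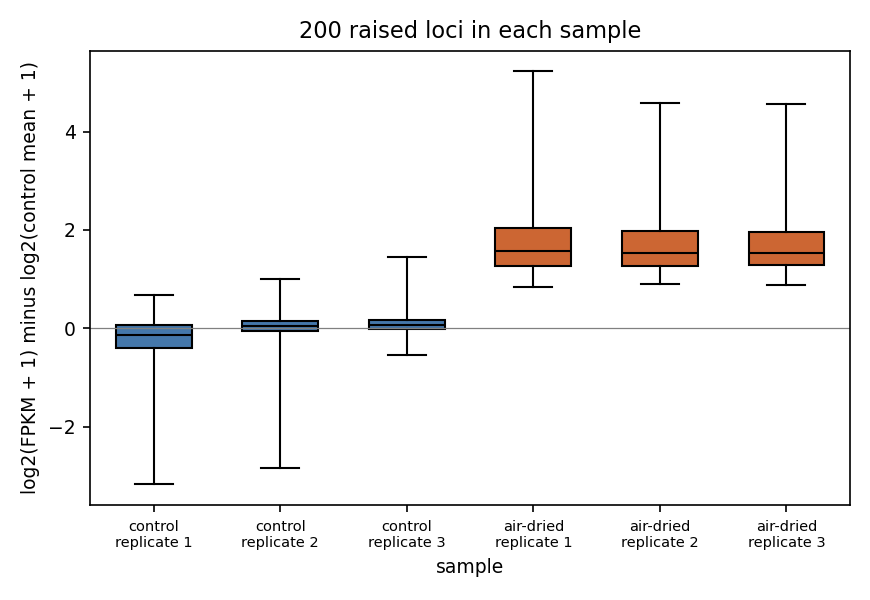
Distribution over the 200 raised loci of log2(FPKM + 1) in each sample minus log2(control mean + 1), with the box from the first to the third quartile, the line at the median and whiskers to the lowest and highest locus. The 3 air-dried samples have like medians, and control replicate 1 reaches lower than the other control samples.

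The locus with the largest ratio was POPTR_0018s08320, a single annotated transcript on the plus strand of chromosome 18 (9245946 to 9246542). It was listed at 2.41, 7.50 and 5.74 FPKM in control replicates 1 to 3, while the air-dried replicates 1 to 3 had 231, 147 and 122 FPKM. Its lowest air-dried value was 16.2 times its highest control value, the widest gap of the set. The mean went from 5.22 ± 2.59 to 167 ± 57.4 FPKM (SD, n = 3 per group), a ratio of 32.0, and air-dried replicate 1 was the highest sample.

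The second ratio belonged to a plus-strand locus of chromosome 5 that the assembly had merged over 54737 bases (14418323 to 14473059). It stood at 1.05, 1.82 and 3.57 FPKM in the control replicates and at 36.6, 57.1 and 72.9 FPKM in the air-dried ones. Both its transcripts had a higher mean in air-dried leaves, and the new transcript that spans the locus carried 85.2% of the difference in mean FPKM. The annotated transcript at its left end (14418326 to 14419703) was listed at 5.1e-05, 1.82 and 0.00589 FPKM in the control replicates. In the air-dried replicates it had 16.1, 1.49 and 8.03 FPKM, so its groups overlapped. How the reads were divided between the transcripts differed from sample to sample, while their sum did not overlap with control.

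The third ratio, 19.1, rests on an unsteady control. This 316-base locus of chromosome 18 (5529609 to 5529924) was listed at 0 in control replicates 1 and 2 and at 18.5 FPKM in control replicate 3, against 173, 96.2 and 84.9 FPKM in the air-dried replicates. A value listed at 0 can be a failed estimate, and the lowest air-dried value was 4.58 times the highest control value.

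The next 3 loci by ratio had every control sample above 0. On chromosome 9 a locus of 1 transcript (12284978 to 12286144) went from 7.19 ± 2.84 to 113 ± 7.03 FPKM (SD, n = 3 per group). On chromosome 14 a 1062-base locus (1643749 to 1644810) had 9.98, 9.11 and 7.82 FPKM in control leaves and 130, 132 and 124 FPKM in air-dried leaves, and its annotated transcript held these values in full. The spread within either group there was small beside the 14.3-fold ratio. On chromosome 13 a locus of 751 bases (14860460 to 14861210) reached 30.2, 29.8 and 29.4 FPKM in air-dried leaves from 0.594, 2.94 and 2.81 FPKM in control leaves. Its control coefficient of variation (SD over mean) was 62.3%, and its call by limma was lost without any 1 of the air-dried replicates.

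A locus on chromosome 1 (45880438 to 45888147) showed a pair of annotated transcripts that moved together within a merged model. The right-hand one (45887546 to 45888147) went from 11.1, 7.38 and 7.11 to 95.8, 104 and 105 FPKM and carried 87.6% of the difference in mean FPKM. The left-hand one (45880438 to 45880911) was at or near 0 in every control sample and reached 12.5, 13.0 and 14.5 FPKM after air-drying. The 2 transcripts do not overlap each other, and the new transcript that joins them was near 0 in every sample but control replicate 2, where it stood at 0.529 FPKM.

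The remaining ratios among the first 12 ran from 12.3 to 10.0. On chromosome 13 a locus of 1173 bases (14941759 to 14942931) was listed at 0, 9.85 and 3.29 FPKM in control leaves and at 71.5, 44.7 and 45.2 FPKM in air-dried leaves. On chromosome 17 a locus (5627545 to 5628871) went from 1.18 ± 0.0996 to 13.9 ± 3.68 FPKM (SD, n = 3 per group). On chromosome 16 a locus of 1080 bases (5036503 to 5037582) was listed at 15.8, 18.4 and 16.8 FPKM in control leaves and at 201, 183 and 181 FPKM in air-dried leaves. The last of these combined a high level with a ratio of 11.1 and narrow groups, where the first had a control sample at 0. The other 2 of the 12 lay beside a further raised locus and are described with their neighbours below.

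**Figure D3:**
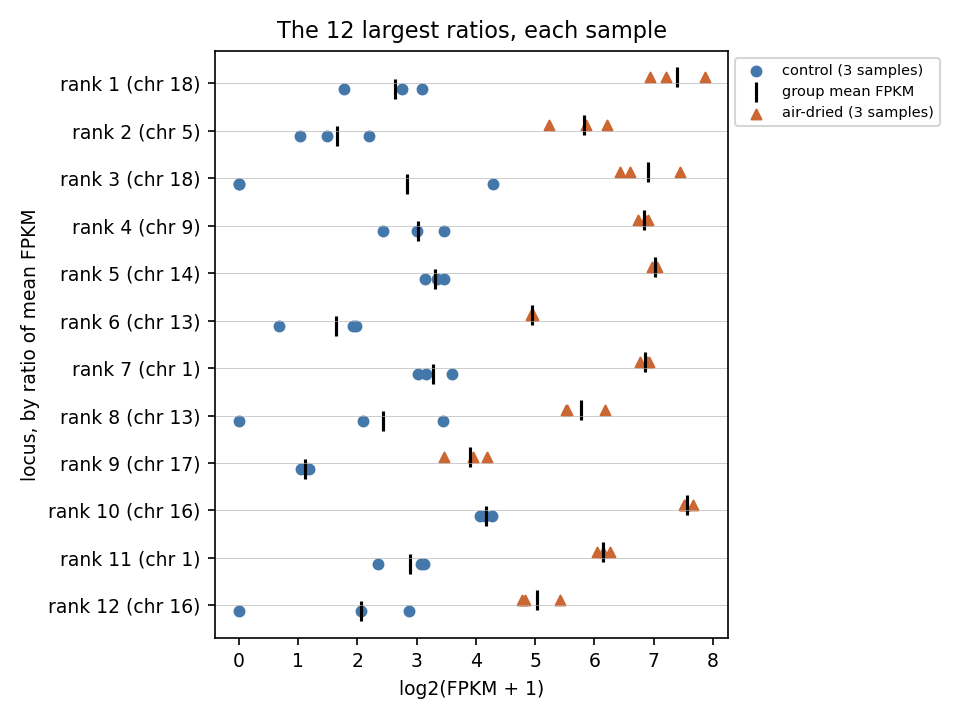
Values of the 12 raised loci with the largest ratio of mean FPKM, on the log2(FPKM + 1) scale, with circles for the 3 control samples, triangles for the 3 air-dried samples and black ticks for group means; rows are labelled with rank and chromosome. Air-dried values lie to the right of every control value in each row, and the control values at ranks 3, 8 and 12 include samples listed at 0.

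The most abundant raised locus was POPTR_0019s00660.r1, on the plus strand of chromosome 19 (416941 to 423727). Control replicates 1 to 3 held 341, 499 and 249 FPKM of it, and the air-dried replicates 1519, 1145 and 1172 FPKM. The mean went from 363 ± 127 to 1278 ± 208 FPKM (SD, n = 3 per group), a ratio of 3.52. Its annotated transcript (416941 to 418246) held 213, 255 and 229 FPKM in control leaves and 810, 843 and 637 FPKM in air-dried leaves. A longer new transcript from the same start was much less steady, at 128, 244 and 19.3 FPKM in control leaves and 709, 302 and 535 FPKM in air-dried leaves, so most of the spread in the control sum came from it. Its call by limma was lost without control replicate 1 and without any 1 of the air-dried replicates, at log2 fold changes of 1.73 to 1.93, against 1.86 with all samples. The locus overlaps 2 other loci of at least 300 bases, in part on the opposite strand, where reads cannot be assigned to a strand. Without the most abundant locus the summed FPKM of the members was 1978 to 2289 in control samples and 8413 to 8583 in air-dried samples.

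Next in level was a plus-strand locus of chromosome 3 (14941797 to 14943066), at 342, 334 and 301 FPKM in air-dried leaves and 47.1, 37.6 and 34.8 FPKM in control leaves. Of the first 8 by level, 3 more had a ratio above 4. On chromosome 7 (602330 to 603357) the mean went from 22.9 ± 2.85 to 199 ± 24.1 FPKM (SD, n = 3 per group), a ratio of 8.71, and on chromosome 16 the locus already given reached 189 ± 11.0 FPKM. On chromosome 10 (1506349 to 1507528) the mean went from 44.6 ± 1.49 to 196 ± 11.4 FPKM, although the part assigned to its new transcript ranged from 4.62 to 85.8 FPKM among the air-dried samples. The other members among the first 8 by level had smaller ratios. A locus on chromosome 2 (7550743 to 7552284) went from 65.0 ± 7.67 to 234 ± 19.9 FPKM, one on chromosome 11 (215463 to 216933) from 82.2 ± 4.73 to 204 ± 13.1 FPKM, and one on chromosome 4 (1268348 to 1269781) from 142 ± 15.5 to 313 ± 1.89 FPKM.

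That locus on chromosome 4 lay just inside the threshold, with a lowest air-dried value 2.02 times its highest control value. So did a locus on chromosome 5 (6288751 to 6296193), at 6.42, 8.52 and 7.35 FPKM in control leaves and 19.4, 18.6 and 17.1 FPKM in air-dried leaves. The third locus just inside lay on an unplaced scaffold and was listed at 0, 2.69 and 2.47 FPKM in control leaves and 10.7, 5.43 and 5.52 FPKM in air-dried leaves. Just outside, with ratios of lowest to highest value of 2.00, 1.99 and 1.98, were a locus on chromosome 1 (778503 to 782323), one on an unplaced scaffold and one on chromosome 2 (9641503 to 9644705). The scaffold locus was abundant, at 226, 283 and 219 FPKM in control leaves and 640, 564 and 602 FPKM in air-dried leaves. Ratios of means on either side of the threshold overlapped, at 2.20, 2.47 and 4.20 inside and 3.35, 2.48 and 2.48 outside. The largest ratio on each side belonged to a locus listed at 0 in control replicate 1. The one outside, on chromosome 1, had 0, 2.33 and 2.26 FPKM in control leaves.

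The air-dried samples were steadier over the members than the control samples. The coefficient of variation in air-dried leaves had a median of 8.07% over the members and was under 10% in 131 of them; over eligible loci its median was 9.51%. In control leaves it had a median of 17.4% over the members, against 14.5% over eligible loci, and exceeded 30% in 59 members. The rule asks for separated groups and so itself favours small spread.

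In 6 members the air-dried coefficient of variation exceeded 30%. Air-dried replicate 1 was the highest of the 3 in some of these and the lowest in others. A locus of 717 bases on chromosome 15 (8826180 to 8826896) had 81.6, 20.9 and 25.4 FPKM after air-drying, in replicate order. A locus of 363 bases on chromosome 6 (23441022 to 23441384) had 98.3, 209 and 232 FPKM, from 23.9, 25.5 and 39.5 FPKM in control leaves.

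Control replicate 1 was the lowest control sample in 127 of the 200 members (63.5%), against 37.6% of eligible loci. It was listed at 0 or under 0.001 FPKM in 7 members, 1 of which was also at 0 in control replicate 2. Whether this library's departure contributes to these low values was not tested. Without it the median ratio of the members was 3.23. Without it the rule itself took 269 loci, 198 of them among the 200. The 2-fold condition is easier to meet over fewer samples.

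For the size of the difference with its error, limma was fitted on log2(FPKM + 1) over the 22835 loci that averaged 1 FPKM or more. The median log2 fold change of the members was 1.57, with a median standard error of 0.14, and the median over all tested loci was 0.0066. At an adjusted p under 0.05 (Benjamini-Hochberg), 184 of the 200 members were called as rises, beside 4.16% of all tested loci; the same values chose the members, so nothing is read from this count. The 16 members not called had control replicate 1 as their lowest control sample, 13 had a control mean under 5 FPKM, and they include the 7 with a control sample under 0.001 FPKM. The third, eighth and twelfth ratios described above are among these 16.

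The raised loci were often compact. The rule used span only as a minimum of 300 bases and did not use the number of transcripts. Of the 200, 115 (57.5%) had a single transcript, against 24.3% of eligible loci. Their median span was 1804 bases, against 3625 bases, and 117 (58.5%) spanned under 2000 bases, against 22.8% of eligible loci. Seen the other way, the rule took 2.16% of eligible loci with 1 transcript, 0.850% of those with 2, 0.760% of those with 3, 0.285% of those with 4, 0.577% of those with 5 and 0.192% of those with 6 or more. The share did not fall evenly with span. It was 1.01% from 300 to under 500 bases, near the 0.915% over all eligible loci, and 2.18% from 500 to under 1000 bases. It was 2.64% from 1000 to under 2000 bases, 0.563% from 2000 to under 5000 bases, 0.324% from 5000 to under 10000 bases and 0.550% at 10000 bases or more.

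**Figure D4:**
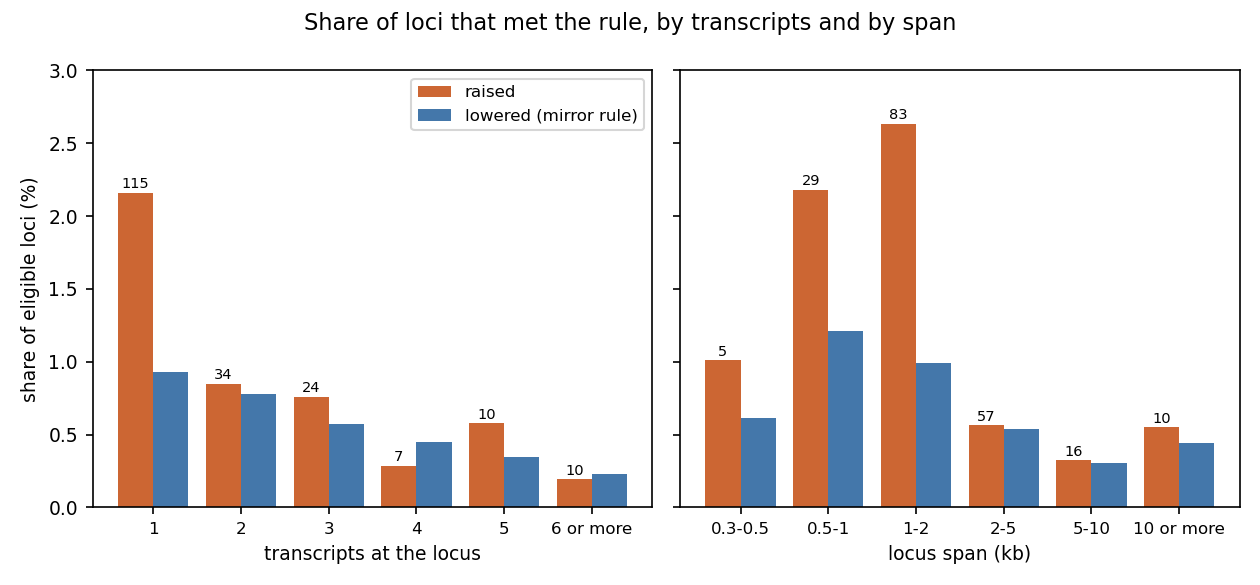
Share of eligible loci, in percent, that met the rule (orange, with the number of raised loci above the bar) or the mirror rule for lowered loci (blue), by number of transcripts at the locus (left) and by locus span (right). Raised loci make up over 2% of loci with 1 transcript and of loci from 0.5 to 2 kb, and under 1% of loci with more transcripts or longer spans.

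Structure and level were linked, so both were split. Single-transcript loci had a lower median control level, 6.44 FPKM, than loci with 2 or more transcripts, 14.1 FPKM. Within 1 to under 5 FPKM in control leaves, the rule took 2.57% of single-transcript loci and 1.19% of the others. Within 5 to under 20 FPKM it took 2.38% and 0.444%, and at 20 FPKM or more 1.15% and 0.238%. The contrast thus appeared in each band of level. It also appeared in each band of span up to 5000 bases: 2.04% against 0.488% under 1000 bases, where loci with 2 or more transcripts gave 1 member, 3.18% against 1.95% from 1000 to under 2000 bases, and 1.46% against 0.380% from 2000 to under 5000 bases. At 5000 bases or more it was 0.435%, from 1 member, against 0.383%.

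The spread between replicates was wider in single-transcript loci. Their median coefficient of variation in control leaves was 24.3%, where loci with more transcripts had 12.8%. In air-dried leaves these medians were 15.2% and 8.50%. The part of this spread in the share that met the rule was not tested.

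Lowered loci were compact to a lesser extent in these samples. Of 127 loci taken by the mirror rule, 49 (38.6%) had a single transcript and 50 (39.4%) spanned under 2000 bases, with a median span of 2650 bases. The mirror rule took 0.927% of single-transcript loci and 0.231% of those with 6 or more transcripts. Within spans under 2000 bases its order was the opposite, on few loci. Under 1000 bases it took 0.991% of single-transcript loci (16 loci) against 1.53% of the others (3 loci). From 1000 to under 2000 bases it took 0.857% (15 loci) against 1.16% (16 loci). The difference between raised and lowered loci in structure was not tested.

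Single-transcript members also had the larger ratios. Their median ratio was 3.74, against 2.93 for the 85 members with more transcripts, and they made up 19 of the 23 members with a ratio of at least 8. Of the first 12 by ratio, 9 had 1 transcript and 10 spanned under 2000 bases. The same values chose the members, and where replicates spread more the rule asks for a larger ratio of means. This order is therefore a description only.

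By relation to the annotation, 113 members were reference models with no added transcript, 68 were models extended with new transcripts, 15 were merged loci that join annotated transcripts to new ones under a new identifier, and 4 were wholly new. These made up 2.28% of eligible unextended models, 0.481% of extended, 0.690% of merged and 0.678% of new loci. Unextended models with 1 transcript and a span under 1000 bases gave 29 members, of 1168 such eligible loci. Loci of 15000 bases or more gave 9 members, of 960, and all 9 were merged loci. The 4 new loci lay on chromosomes 1, 6 and 14 and on an unplaced scaffold, and in 3 of them control replicate 1 was listed at 0. The fourth, on chromosome 1 (40731804 to 40732750), was listed at 1.76, 2.03 and 2.26 FPKM in control leaves and at 10.7, 9.18 and 9.05 FPKM in air-dried leaves.

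In the 85 members with 2 or more transcripts, the difference usually sat mostly in 1 of them. The leading transcript is the one with the largest difference. Its share is thus high in part by construction, above all in the 34 members with 2 transcripts. No share over other eligible loci stands beside it. The leading transcript carried a median of 85.4% of the locus difference in mean FPKM (quartiles 69.7% and 99.0%), at least 90% in 36 members and under 60% in 13. It was an annotated transcript in 52 members and a new one in 33. In 54 of the 85, the leading transcript met the rule on its own values; in the other members only the sum did. In 33 members another transcript had a lower mean in air-dried leaves, but by 1 FPKM or more in only 4. With annotated transcripts alone, 149 of the 200 members still met the rule, and 5 members had no annotated transcript.

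The split between transcripts was less steady than the sum. Over these 85 members the median coefficient of variation in air-dried leaves was 10.3% for the leading transcript and 6.50% for the locus.

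**Figure D5:**
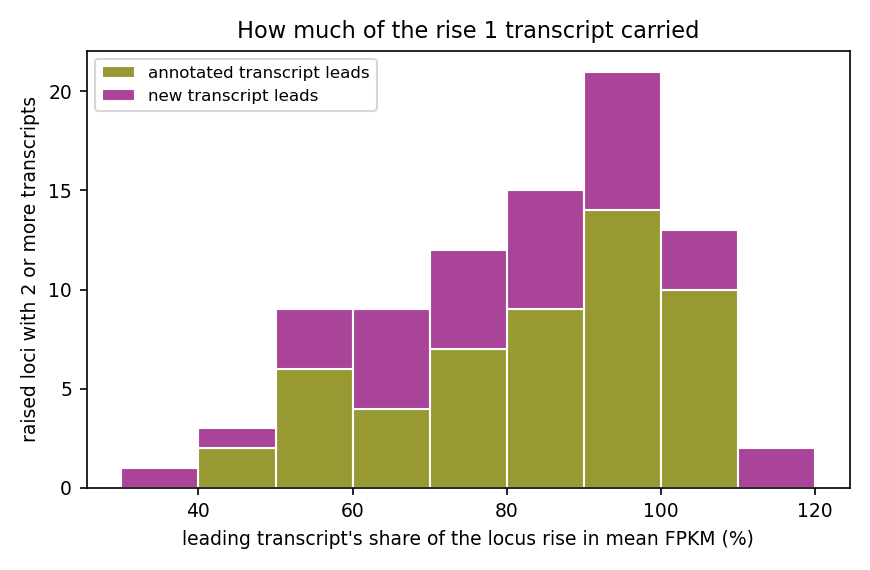
Number of raised loci with 2 or more transcripts (85 in all), by the share of the locus difference in mean FPKM that its leading transcript carried, in percent; colours show whether that transcript was annotated (52 loci) or new (33 loci). The median is 85.4%; a share above 100% occurs where another transcript of the locus had a lower mean in air-dried leaves.

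Raised loci were spread over all 19 chromosomes, with 4 on other genome sequences. The share of eligible loci ran from 0.607% on chromosome 10, with 9 members, to 1.57% on chromosome 16, with 12 members. The plus strand held 113 members and the minus strand 85, with 2 of unassigned strand, against 10752, 10855 and 251 eligible loci. Other members lay within 100000 bases of 29 of the 200, with members that overlap another member included. Neither this count nor those of adjacent and overlapping members below has a share over eligible loci beside it. None of them is read as clustering.

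Directly adjacent raised loci, with no other eligible locus between them, formed 6 pairs. On chromosome 1, loci on the plus strand 7632 bases apart (9140944 to 9142215 and 9149848 to 9150882) went from 6.43 ± 2.01 to 70.0 ± 5.38 FPKM and from 19.5 ± 1.52 to 65.2 ± 3.21 FPKM (SD, n = 3 per group). On chromosome 16, loci 256 bases apart on the plus strand (205583 to 206585 and 206842 to 207387) changed in mean from 31.8 ± 1.05 to 85.4 ± 7.10 FPKM and, for the second, from 3.18 ± 3.17 up to 31.8 ± 8.57 FPKM. This locus, ranked twelfth by ratio, was listed at 0 in control replicate 1. The pair on chromosome 19 joined the most abundant member to a locus on the same strand (402088 to 403976) that went from 8.75 ± 0.642 to 29.3 ± 1.16 FPKM. The pair on chromosome 3 joined the second most abundant member to a locus on the minus strand (14928871 to 14929670) that went from 15.6 ± 3.59 to 44.2 ± 3.61 FPKM. On chromosome 6 both loci (7781925 to 7783892 and 7791808 to 7793884) were weak, from 1.43 ± 0.302 to 5.30 ± 0.746 FPKM and from 1.03 ± 0.208 to 4.90 ± 0.627 FPKM. In the sixth pair, on chromosome 17, a merged locus of the plus strand (5628345 to 5844565) overlaps the minus-strand locus ranked ninth by 527 bases, and reads in the overlap cannot be assigned to a strand.

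Expressed loci beside a member mostly had ratios near 1. Eligible loci directly beside a member that were not members themselves numbered 381; their median ratio was 1.02 (quartiles 0.857 and 1.21), and 207 of them (54.3%) had a ratio above 1, against 48.9% of all eligible loci. A divergent neighbour, whose start faces away from that of the member within 1000 bases, was found for 2 members (1.00%) and for 817 eligible loci (3.74%). The 2 partners had ratios of 0.877 and 1.08.

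Overlap with other loci touched a minority. Of the 200 members, 23 overlapped another locus of at least 300 bases, 16 of them a locus on the opposite strand, and in 13 the overlapping locus had the higher air-dried mean. Of the members, 5 overlapped another member, in 3 overlaps on chromosome 17 that each involved a merged locus of over 15000 bases. For these loci the deposited values may divide shared reads.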

How the data were processed

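Poly(A) RNA from leaves went into TruSeq RNA libraries and was sequenced as 100 bp read pairs, per the labels' protocols. The authors deposited FPKM per transcript, per the file headers, in 1 table per sample. FastQC, TopHat and Cufflinks are named in the submitters' processing notes; no source used here names versions, a genome build or an annotation. Samples were grouped by title, 3 control and 3 air-dried, and FPKM was summed by locus.

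The members, and the lists and tests, were chosen with earlier results of these data known. Gene lists had been drawn up by product name, but the files give 0 gene names, so none was applied. The loci described were the 12 with the largest ratios, the 8 with the highest air-dried means, 3 on each side of the threshold, and adjacent members; further examples (the 4 new loci, 2 loci with wide spread) were chosen after their values were seen.

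limma 3.58.1 in R 4.3.3 was fitted, without a block and with a variance trend, on log2(FPKM + 1) of the loci averaging 1 FPKM or more; this scale understates changes of weak loci. The fit was tested on simulated data, with the outcome not reported here. That simulation gave all 6 samples of a locus the same spread, so it does not cover the departure of control replicate 1. Labels do not pair replicate numbers, so the numbers were not taken as pairs. Correlations of deviations were 0.082, -0.18 and 0.20 between same-numbered samples and -0.30 to 0.22 between the others. Deviations from a mean of 3 samples are tied to each other, so these values cannot decide whether samples were paired. No label says that replicates were separate plants, so adjusted p-values reflect only a spread that may be technical. Summaries used Python 3.11.15. Alternatives covered scaling, pseudocount, filters, transcript set, variance model, replicate block and each sample left out.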

Additional observations from a re-analysis of the deposited data

How the results depend on the processing

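The count of 200 raised loci stayed within 1.5 times under size factors, no minimum span, annotated transcripts only and each sample left out (222 to 269). It was 101 with a control mean of at least 5 FPKM and 372 with no minimum, by construction of the filter. At least 194 of the 200 stayed in the set under size factors and under each omission, and 149 with annotated transcripts only. Leaving a sample out can only ease the 2-fold condition. A member is then lost only through the control mean, so the counts under omission follow largely from the rule. The median ratio of 3.40 was 3.48 with annotated transcripts only and 3.23 to 3.49 with each sample left out. The single-transcript share of 57.5% ran from 54.5% to 58.8% under the 8 alternatives, chosen after the data were seen. These sets hold at least 194 of the same 200 loci or, with a control mean of at least 5 FPKM, only 101 of them. The shares are therefore not independent of each other. Of the 200 members, limma called 184. It called 102 with the replicate number as a block (the labels do not say that numbers pair samples), all among the 184. With a sample left out it called 115 to 192, with 115 without air-dried replicate 2 and 119 without air-dried replicate 3. No other setting moved that count by over 1.5 times. Rises called over all tested loci moved as well, from 951 of 22835 to 167 of 22835 with the block. They were 325 of 22780, 227 of 22844 and 230 of 22822 without air-dried replicates 1, 2 and 3 in turn. Without control replicates 2 and 3 they were 407 of 22721 and 538 of 22796. Without control replicate 1, where 192 members were called, they were 1102 of 22664. Over 209 alternatives for 21 named members, no log2 fold change turned its direction, 12 lost their call and 3 gained one. Of the losses, 5 were of the most abundant locus (the block, control replicate 1 or any air-dried replicate left out) and 4 of the chromosome 13 locus at 14860460 (the block or any air-dried replicate left out). The locus with the largest ratio and the one at 6288751 on chromosome 5 lost theirs with the block, and the merged chromosome 5 locus with annotated transcripts only, where its log2 fold change was 2.36, against 4.19. The cause was not tested. Depth is unknown, so what depth limits cannot be stated.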
